A study of Mus musculus with 6 samples.

Results

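The genes described here are 10 classical immediate early genes and close relatives, chosen by name: *Fos*, *Fosb*, *Jun*, *Junb*, *Jund*, *Egr1*, *Ier2*, *Ier3*, *Myc* and *Btg2*. All 10 were among the 54532 genes of the count table, and 9 passed the filter on low counts that kept 13377 genes for testing; *Fosb* did not. They were measured by RNA sequencing in livers of 6 male C57BL/6J mice, all given a high-fat diet for 6 weeks from 8 weeks of age to induce insulin resistance (IR) and then fasted for 16 h. In the IR insulin group, 3 mice received insulin intraperitoneally at 0.75 units per kg body weight. In the IR vehicle group, 3 mice received bovine serum albumin (BSA), the insulin vehicle. Livers were taken 6 h after injection, so that the comparison addressed the insulin response of livers that were already insulin resistant, with no chow-fed mice and no earlier time point analysed here. Each library was made from 1 mouse.

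Immediate early genes are transcribed within minutes of a growth factor, hormone or stress signal, without new protein synthesis, because the factors that read their promoters are already in place. ERK kinases act on them through serum response factor (SRF) and its ternary complex partners, and cAMP signalling acts through CREB. Their mRNAs are short-lived, and many carry AU-rich elements in the 3′ untranslated region that are bound by decay factors such as ZFP36. In liver they are known for their response to insulin, refeeding, partial hepatectomy and handling of the tissue. The label of transcription factors holds for most of the list but not for all of it: IER3 is a stress and survival regulator that does not bind DNA, and BTG2 is an antiproliferative cofactor of mRNA deadenylation and transcription.

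In the main edgeR fit, none of the 9 tested genes passed a test for a change 6 h after insulin. By the criteria of the study, an unadjusted p under 0.05 with a log2 fold change of 0.35 or more in either direction, 0 of 9 were called by edgeR, where 2.86% of all 13377 genes were. DESeq2, the tool of the study, called 1 gene of the list by the same criteria, *Ier3* (2.38% of all genes). At an adjusted p under 0.05, 0 of 9 were called, and the share over all genes was 0% (edgeR, Benjamini-Hochberg). At an unadjusted p under 0.05 alone, also 0 of 9 passed by edgeR. The fitted values were higher with insulin for 4 genes (*Jun*, *Jund*, *Ier3*, *Myc*) and lower for 5 (*Fos*, *Junb*, *Egr1*, *Ier2*, *Btg2*), with a median log2 fold change of −0.058, beside −0.017 over all genes tested. Many of these genes spread widely between mice of the same group. The median within-group SD of log2 levels was 0.98 for the 9 genes and 0.42 over all genes. It was 0.60 for 47 other immediate early genes and AP-1 partners tested. *Fos*, *Egr1* and *Jund* lay at or above the 98.9th percentile of all genes, and *Ier3*, *Myc* and *Btg2* at the 75.5th to 81.9th. Library totals were 18449986 to 21827619 counts and 16470 to 18874 genes had a count, lowest in vehicle replicate 2. Liver was recognizable from its hepatocyte markers, which summed to 55445 to 157133 normalized counts (CPM, scaled by TMM) in every library. In bulk tissue, fewer cells of a type and less RNA per cell cannot be told apart.

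**Figure D1:**
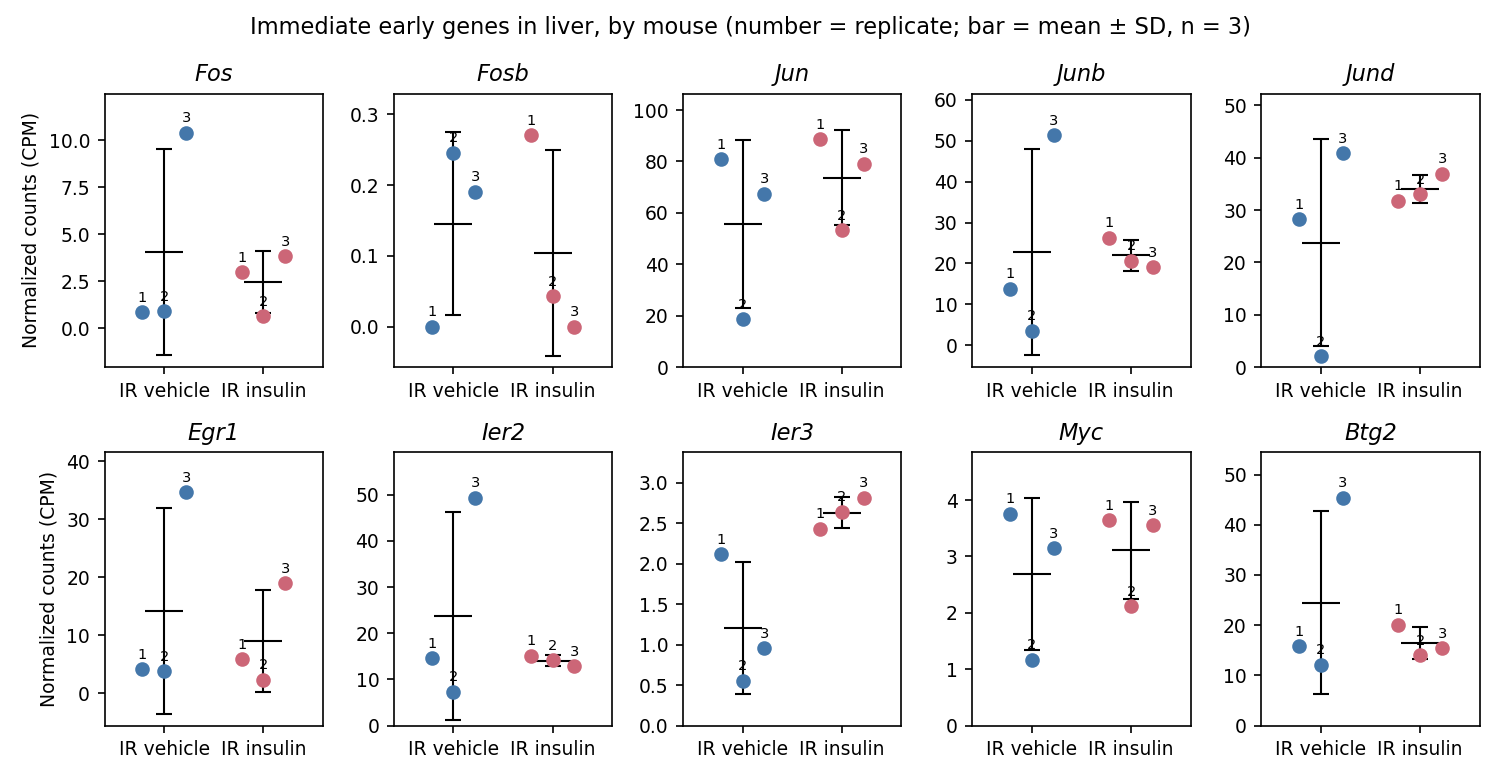
Normalized counts (CPM, linear axes that differ between panels) of the 10 genes in each mouse, with the replicate number beside each point and bars giving mean ± SD (n = 3 mice). Vehicle replicate 3 is the highest point for *Fos*, *Junb*, *Jund*, *Egr1*, *Ier2* and *Btg2*, and *Ier3* is the tested gene whose groups do not overlap.

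FOS and FOSB are basic leucine zipper subunits of AP-1 that bind DNA as dimers with JUN proteins. *Fos* (ENSMUSG00000021250; GRCm38 chr12:85473890-85477273, plus strand, 4 exons) measured 0.846, 0.921 and 10.4 CPM in the vehicle mice (replicates 1, 2 and 3, as for all genes below) and 2.97, 0.649 and 3.83 CPM in the insulin mice. The vehicle group thus held both 2 of the 3 lowest values and the highest, and the groups overlapped. The means were 4.05 ± 5.49 CPM with vehicle and 2.48 ± 1.64 CPM with insulin (SD, n = 3). The log2 fold change, here and below insulin against vehicle, was −0.72 ± 1.02 (SE; edgeR adjusted p = 0.870). Behind the 2 low vehicle values were 16 and 15 counts, against 218 in replicate 3. *Fosb* (ENSMUSG00000003545; chr7:19302696-19310051, minus strand, 4 exons) had 0, 4 and 4 counts with vehicle and 6, 1 and 0 with insulin. A total of 15 counts over 6 libraries, with 3 counts equal to between 0.130 and 0.184 CPM, left no change detectable at this depth.

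JUN, JUNB and JUND are the AP-1 subunits that can pair with each other as well as with FOS proteins. *Jun* (ENSMUSG00000052684; chr4:95049034-95052222, minus strand, 1 exon) measured 80.8, 18.6 and 67.5 CPM in the vehicle mice and 88.7, 53.2 and 79.2 CPM in the insulin mice. Apart from vehicle replicate 2, its libraries lay close together and interleaved. The means were 55.6 ± 32.8 and 73.7 ± 18.4 CPM, with a log2 fold change of 0.40 ± 0.49 (adjusted p = 0.859). *Jund* (ENSMUSG00000071076; chr8:70698949-70700616, plus strand, 1 exon), which is usually the constitutive member of the family, measured 28.3, 2.15 and 40.9 CPM in the vehicle mice and 31.8, 33.0 and 36.9 CPM in the insulin mice. The insulin values were tight, 33.9 ± 2.67 CPM, while the vehicle values, 23.8 ± 19.8 CPM, differed 19.0-fold between replicates 3 and 2. The log2 fold change was 0.51 ± 0.78 (adjusted p = 0.874).

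*Junb* (ENSMUSG00000052837; chr8:84974484-84978718, minus strand, 1 exon), often an antagonist of JUN, measured 13.8, 3.50 and 51.3 CPM in the vehicle mice and 26.2, 20.7 and 19.1 CPM in the insulin mice. Its vehicle libraries held the lowest 2 values and the highest value of the 6. The group means were nearly equal, 22.9 ± 25.2 and 22.0 ± 3.75 CPM, and the log2 fold change was −0.058 ± 0.77 (adjusted p = 0.986). The annotated *Junb* model overlaps *Prdx2* on the opposite strand, which was at 99.8 to 146 CPM. The *Jun* model overlaps the antisense gene *Junos*, which had 0 to 12 counts. Whether counting used strand is not given in the sources used here, so reads from these pairs may not be fully separated.

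EGR1 is a zinc finger factor that binds GC-rich promoter sites and is a standard readout of ERK activity. *Egr1* (ENSMUSG00000038418; chr18:34859823-34864984, plus strand, 2 exons) measured 4.18, 3.74 and 34.6 CPM in the vehicle mice and 5.81, 2.29 and 18.9 CPM in the insulin mice. The order of the mice was close to that of *Fos*: vehicle replicate 3, insulin replicate 3 and insulin replicate 1 were the highest, in that order, and insulin replicate 2 the lowest, for both genes. The means were 14.2 ± 17.7 and 9.0 ± 8.76 CPM, and the log2 fold change was −0.66 ± 0.99 (adjusted p = 0.873).

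MYC pairs with MAX to drive genes of growth and ribosome production. *Myc* (ENSMUSG00000022346; chr15:61985391-61990374, plus strand, 3 exons) measured 3.75, 1.17 and 3.15 CPM in the vehicle mice and 3.65, 2.12 and 3.55 CPM in the insulin mice. It varied least from highest to lowest of the 9 genes, 3.22-fold, and its groups overlapped. The means were 2.69 ± 1.35 and 3.11 ± 0.855 CPM, with a log2 fold change of 0.20 ± 0.48 (adjusted p = 0.919).

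IER2 is a small nuclear protein that regulates transcription. *Ier2* (ENSMUSG00000053560; chr8:84661331-84662852, minus strand, 1 exon) measured 14.6, 7.37 and 49.4 CPM in the vehicle mice and 15.1, 14.2 and 12.8 CPM in the insulin mice. Vehicle replicate 3 stood 3.26-fold above the next library, while the insulin mice kept within 14.0 ± 1.16 CPM. The vehicle mean was 23.8 ± 22.5 CPM and the log2 fold change −0.76 ± 0.61 (adjusted p = 0.852). *Btg2* (ENSMUSG00000020423; chr1:134075170-134079120, minus strand, 2 exons), also a p53 target, measured 15.8, 12.2 and 45.4 CPM in the vehicle mice and 20.1, 14.1 and 15.4 CPM in the insulin mice. It had the same shape as *Ier2*, with vehicle replicate 3 2.26-fold above the next library. The means were 24.5 ± 18.2 and 16.5 ± 3.16 CPM, and the log2 fold change was −0.57 ± 0.48 (adjusted p = 0.852).

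*Ier3* (ENSMUSG00000003541; chr17:35821684-35822923, plus strand, 2 exons) was the tested gene of the list whose groups did not overlap. It measured 2.11, 0.552 and 0.954 CPM in the vehicle mice and 2.43, 2.64 and 2.81 CPM in the insulin mice, from 9 to 61 counts a library. All 3 insulin mice were above all 3 vehicle mice, although vehicle replicate 1 came near them. The means were 1.21 ± 0.811 and 2.63 ± 0.191 CPM, with a log2 fold change of 1.11 ± 0.51 (adjusted p = 0.852), which did not pass the criteria of the study. That 1 of 9 genes did not overlap between groups compares with 12.3% of all genes tested. The call moved with the processing. *Ier3* was past the criteria with no filter on low counts (1.14, where 3.22% of genes were called), by DESeq2 (1.11, 2.38%) and without vehicle replicate 1 (1.79, 9.81%), and its fitted value was above 0 in all 16 alternatives, from 0.32 to 1.79.

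Compared per kilobase of the longest annotated transcript, the mean level over the 6 libraries was highest for *Jun* (20.3 CPM per kb) and *Jund* (17.3), then *Ier2* (12.42), *Junb* (12.41) and *Btg2* (7.47). *Egr1* (2.59), *Ier3* (1.70), *Fos* (1.55) and *Myc* (1.24) were low, and *Fosb* was lowest at 0.033 CPM per kb. The ranges over libraries, such as 0.308 to 4.93 for *Fos* and 0.512 to 7.72 for *Egr1*, overlapped those of their neighbours in this order. The order among *Egr1*, *Ier3*, *Fos* and *Myc* was thus within the spread between mice. The ranges of *Jun*, *Jund*, *Ier2*, *Junb* and *Btg2* also overlapped. Within each of the 6 libraries, however, *Jun* and *Ier2* were both above *Btg2* per kilobase.

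Vehicle replicate 3 was the highest of the 6 libraries for 6 of the 9 genes (*Fos*, *Junb*, *Jund*, *Egr1*, *Ier2*, *Btg2*), where 23.4% of all genes tested were highest in it. Against the median of the other 5 libraries, its level was 10.3-fold for *Fos*, 8.12-fold for *Egr1*, 3.47-fold for *Ier2*, 2.93-fold for *Btg2* and 2.68-fold for *Junb*. A level at least 2-fold above the median of the others was thus reached by 5 of 9 genes, beside 4.75% of all genes. *Jund* was 1.29-fold, *Myc* and *Jun* were slightly below the median, and *Ier3* was 0.416-fold. The serum-inducible genes did not all move with this mouse: *Fos* and *Egr1* were at the 99.9th percentile of all genes by this measure and *Ier3* at the 4.59th. Insulin replicate 3 was the other mouse with high *Egr1* and *Fos*, 4.45-fold and 3.86-fold over the median of the others. These 2 of 9 genes were at least 2-fold up in it, beside 1.55% of all genes.

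**Figure D2:**
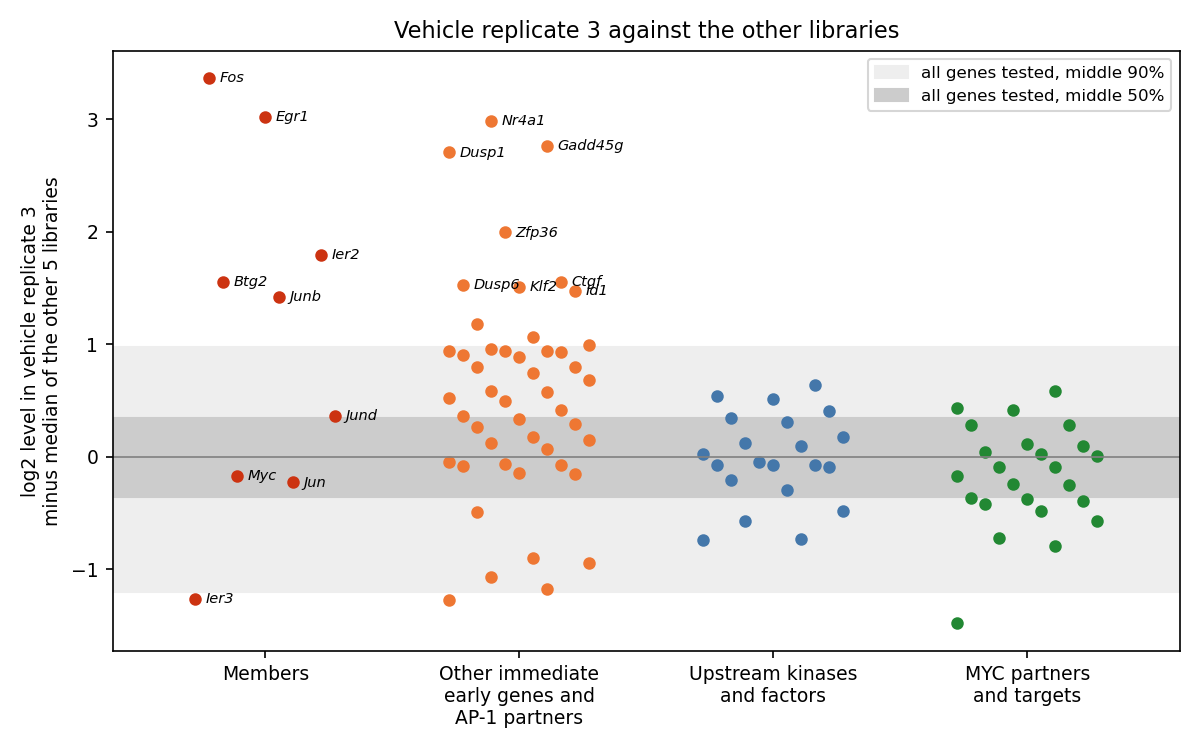
Log2 level in vehicle replicate 3 minus the median of the other 5 libraries (1 point per gene) for the 9 genes and 3 sets of related genes, over grey bands with the middle 50% and 90% of all 13377 genes. *Fos* and *Egr1* are highest, followed among related genes by *Nr4a1*, *Gadd45g* and *Dusp1*, whereas the upstream kinases and factors and the MYC partners and targets lie mostly within the bands.

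The same mouse stood out for other immediate early genes. Of 52 listed relatives (other immediate early genes and AP-1 partners), 47 were tested, 26 of them were highest in vehicle replicate 3 (23.4% of all genes) and 10 were at least 2-fold above the median of the other libraries there (4.75%). *Nr4a1*, an orphan nuclear receptor, was at 13.6 CPM in this mouse and at 0.368 to 3.14 CPM in the other 5. *Dusp1*, the phosphatase that switches off MAP kinases, was at 117.5 CPM against 15.8 to 22.3 CPM. *Zfp36*, which destabilizes AU-rich mRNAs, was at 167.5 CPM against 13.1 to 61.1 CPM, and *Gadd45g*, a stress-induced growth arrest gene, at 101.9 CPM against 1.29 to 21.3 CPM. These 4 relatives were picked for their large departures, with the values in view. Upstream kinases and factors were highest in this mouse for 3 of 21 genes, and MYC partners and targets for 4 of 24.

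Cell type and stress markers in vehicle replicate 3 also differed from those of the other mice. Its 7 neutrophil markers summed to 4.63 CPM (31.1 to 77.6 CPM in the others), mostly *S100a8* and *S100a9*. *Ly6g*, *Mpo* and *Camp* were at or near 0 in all 6 libraries, at most 0.360 CPM. Of 4 adipocyte markers, *Cfd* alone differed (0.143 CPM against 25 to 153.6 CPM), and *Adipoq*, *Plin1* and *Lep* were at or near 0 in all 6 libraries. Its 6 sinusoidal endothelial markers summed to 244 CPM (144 to 166 CPM). None of 10 heat shock genes was highest in it. Kupffer cell markers were at 263 to 605 CPM and within the range of the other mice. Their part in the levels of the immediate early genes was not tested.

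Vehicle replicate 2 was the lowest library for 7 of the 9 genes (*Jun*, *Junb*, *Jund*, *Ier2*, *Ier3*, *Myc*, *Btg2*), beside 37.4% of all genes. Its level was at least 2-fold below the median of the other 5 libraries for 6 of 9 genes, beside 20.7% of all genes, and was lowest for *Jund*, 0.0678-fold. In this library levels fell with GC content across the genome. The 499 tested genes with a transcript of at least 60% GC had a median of −1.88 on the log2 scale against the other libraries, and all genes −0.021. The immediate early genes are GC-rich, from 49.7% for *Btg2* to 67.1% for *Jund* with a median of 55.5% (all genes 49.3%), and their median was −1.59. *Fos*, *Myc*, *Ier3*, *Jun*, *Junb* and *Jund* lay below the middle 50% of genes of like GC content (for *Junb* and *Jund*, of the bin of highest GC), *Egr1* near and *Ier2* above its upper edge. This mouse also had the highest sums of hepatocyte markers (157133 CPM against 55445 to 103710 CPM), heat shock genes (3492 CPM against 1824 to 2155 CPM), erythroid markers (1587 CPM against 312 to 626 CPM) and B cell markers (40.3 CPM against 2.86 to 10.04 CPM). Their part in these levels was not tested.

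**Figure D3:**
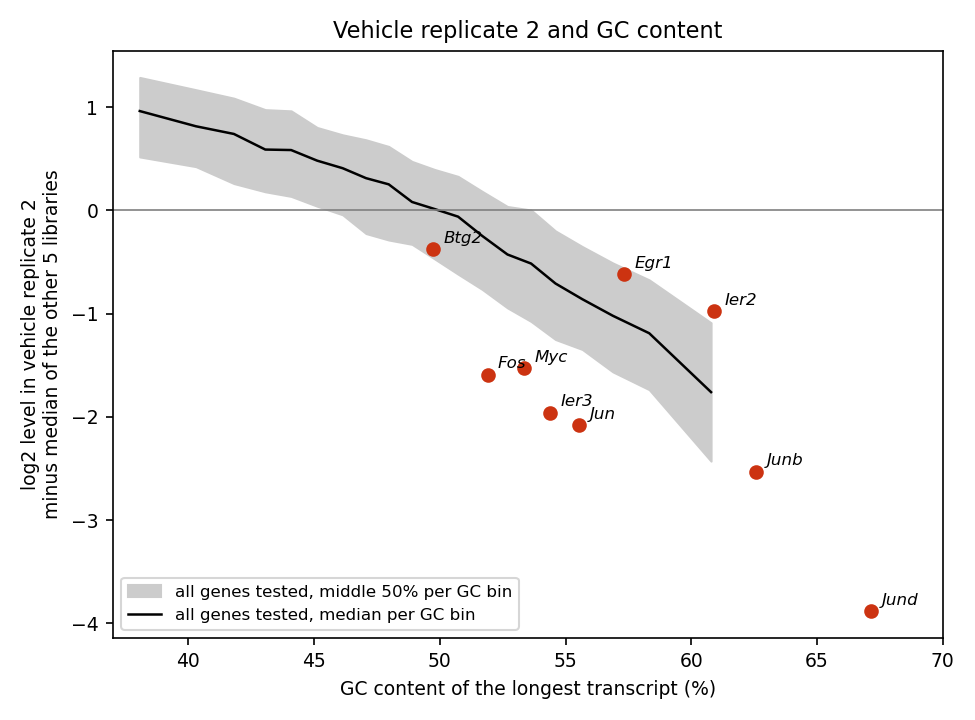
Log2 level in vehicle replicate 2 minus the median of the other 5 libraries against the GC content (%) of the longest transcript. Red points are the 9 genes and the line and grey band are the median and middle 50% of all tested genes in 20 GC bins, which fall from left to right; *Jund* at 67.1% GC is the lowest red point.

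The sign of the insulin response rested on these vehicle mice. Without vehicle replicate 3, all 9 log2 fold changes were above 0, with a median of 0.96, beside 51.5% of all genes above 0 and a median of 0.024. *Fos* then stood at 1.48, *Junb* at 1.34, *Egr1* at 1.18, *Ier2* at 0.35 and *Btg2* at 0.24, all opposite in sign to the fit of 6 libraries. *Junb* passed the criteria of the study there, where 6.51% of genes did. Without vehicle replicate 2, the median was −0.56 and 8 of 9 values were below 0, all but that of *Ier3*. Over all genes, 52.1% were above 0 in that fit and the median was 0.013. *Ier2* then passed the criteria (−1.18), where 3.69% of genes did. Both libraries were left out together in a fit added after seeing the data, in which the 1 remaining vehicle mouse was assumed to vary like the insulin mice. The median was then 0.27, 6 of 9 values were above 0, and *Junb* was past the criteria (0.68; 2.13% of genes).

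Correction for GC content within each library left 0 of the 9 genes past an adjusted p of 0.05 and lowered all 9 log2 fold changes, beside a median over all genes of −0.063. *Ier2* was past the criteria of the study with the GC offset (−1.11; 3.55% of genes) and with the GC offset and replicate block together (−0.96; 2.51%). With the GC offset but without vehicle replicate 3, also added after seeing the data, 8 of 9 values were above 0, beside 44.0% of all genes. There *Ier2* was at −0.52 and *Junb* passed the criteria (0.56, where 5.23% of genes did). In none of the 16 alternatives did any of the 9 genes reach an adjusted p under 0.05, and no gene other than *Ier2*, *Ier3* and *Junb* passed the criteria of the study in any of them.

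**Figure D4:**
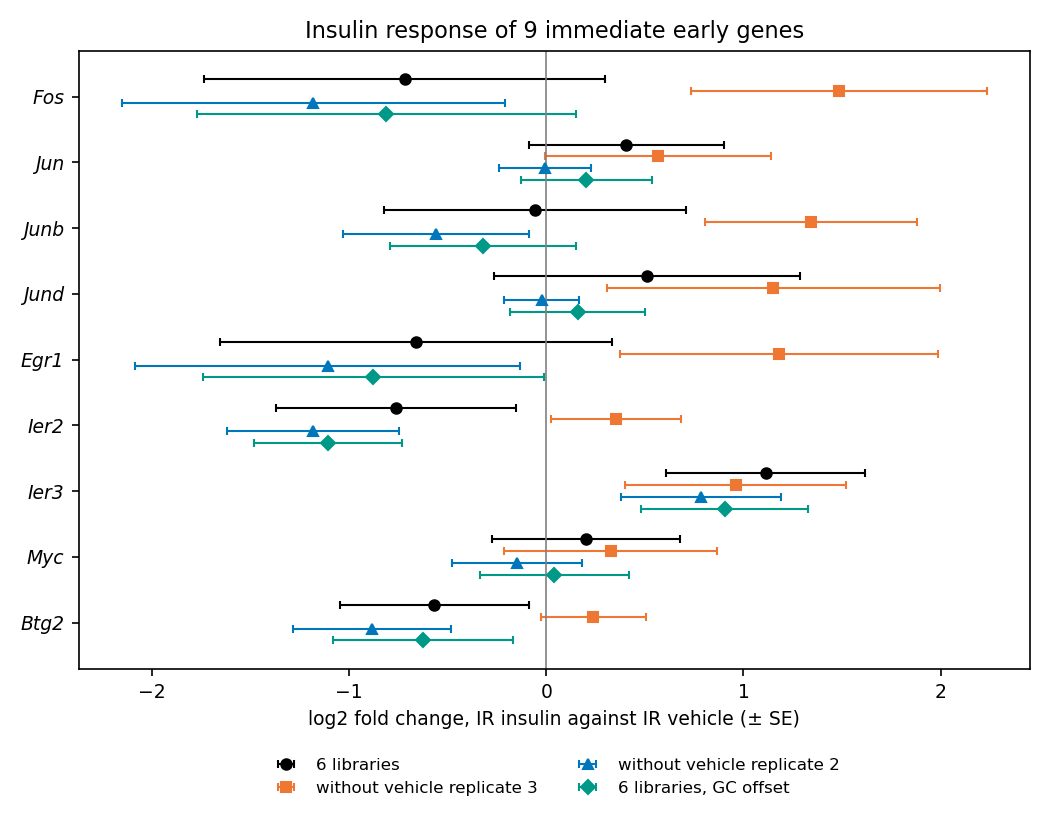
Log2 fold change of IR insulin against IR vehicle (points, bars ± SE from edgeR) for the 9 genes under 4 fits. Without vehicle replicate 3 (orange squares) all 9 values are above 0, whereas with 6 libraries (black circles) 5 of 9 are below 0; *Ier3* is above 0 in all 4.

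The promoters of 3 genes that stood high in vehicle replicate 3 are shown because they carry the cAMP response element, TGACGTCA, or its core, TGACG, through which CREB acts on immediate early genes. Each runs 5′ to 3′ on the gene's strand from 250 bases before to 50 bases after the RefSeq start (GRCm38.p6), with matches in capitals: *Fos* at chr12:85473640-85473939 (plus strand), *Junb* at chr8:84978699-84978998 (minus strand) and *Btg2* at chr1:134079106-134079405 (minus strand).
Fos: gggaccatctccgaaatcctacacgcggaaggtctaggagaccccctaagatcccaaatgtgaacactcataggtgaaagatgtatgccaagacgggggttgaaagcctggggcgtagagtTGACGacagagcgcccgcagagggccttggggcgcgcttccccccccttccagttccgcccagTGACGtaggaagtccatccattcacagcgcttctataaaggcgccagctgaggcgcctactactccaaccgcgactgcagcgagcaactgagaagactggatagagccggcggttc
Junb: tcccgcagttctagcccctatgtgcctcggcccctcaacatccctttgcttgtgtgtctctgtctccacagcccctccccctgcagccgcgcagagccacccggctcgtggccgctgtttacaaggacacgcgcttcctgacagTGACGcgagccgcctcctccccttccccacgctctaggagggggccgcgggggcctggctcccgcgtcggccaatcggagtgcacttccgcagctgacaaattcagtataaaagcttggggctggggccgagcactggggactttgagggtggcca
Btg2: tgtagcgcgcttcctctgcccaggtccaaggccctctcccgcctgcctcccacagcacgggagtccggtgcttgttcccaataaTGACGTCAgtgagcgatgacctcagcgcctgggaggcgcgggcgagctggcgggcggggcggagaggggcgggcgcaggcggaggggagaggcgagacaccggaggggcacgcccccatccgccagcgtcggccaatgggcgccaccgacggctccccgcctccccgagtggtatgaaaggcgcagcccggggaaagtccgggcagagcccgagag

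Promoters of 7 of the 10 genes were matched in RefSeq by symbol (*Egr1*, *Ier2* and *Myc* were not), and motifs were searched on both strands. The full element was in 1 of 7 (*Btg2*), beside 1.79% of 32851 promoters of the same length. The core, which every full element also contains, was in 4 of 7 (*Fos*, *Fosb*, *Junb* and *Btg2*), beside 20.8% of all, and occurred at 2 places in *Fos*. The GC box GGGCGG was in 5 of 7, beside 35.7%. The CArG box bound by SRF, the AP-1 site TGANTCA and the E box CACGTG were in 0 of 7, beside 1.63%, 7.81% and 7.15% of all promoters. Sites outside this window were not searched, so these counts do not show that the genes lack such sites. Of the other genes highest in vehicle replicate 3, *Jund* had no core in its window, and *Egr1* and *Ier2* were not matched. These matches describe letters in the window shown and say nothing of binding in these livers. Their part in the levels of vehicle replicate 3 was not tested. For *Jund*, the RefSeq start lies upstream of the start annotated by GENCODE, so its window was not at the start of the gene model counted.

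All genes of the list but *Ier2* carried at least 1 ATTTA pentamer, the core of AU-rich decay elements, in the annotated 3′ untranslated region: *Ier3* and *Btg2* had 5, *Fos* and *Jun* 4, *Junb*, *Egr1* and *Myc* 2, and *Fosb* and *Jund* 1. Of 18484 coding genes with such a region, 66.8% had at least 1 and 37.97% at least 3. The stretches of 30 bases richest in pentamers (capitals) are shown for *Fos*, highest in vehicle replicate 3, and *Ier3*, highest in the insulin mice.
Fos AU-rich stretch: tattgtgttttcaATTTATTTAttaagatg
Ier3 AU-rich stretch: gtctaattaatATTTAtgtATTTAtgtata

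Gene models were short: 4 of the 10 genes (*Jun*, *Junb*, *Jund*, *Ier2*) had 1 exon, beside 5.43% of coding genes, and none had more than 4, beside a median of 7.

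Among the 47 tested relatives, 2 passed the criteria of the study, beside 2.86% of all genes. With insulin, 22 had higher and 25 lower values, and the median log2 fold change was −0.057. The groups did not overlap for 2 relatives, 4.26% beside 12.3% of all genes. *Ier5*, an immediate early regulator of the heat shock response, rose by the unadjusted criteria, from 7.09, 5.22 and 3.62 CPM with vehicle to 12.1, 11.1 and 8.90 CPM with insulin (1.01 ± 0.31; adjusted p = 0.852). Like those of *Ier3*, its groups did not overlap, and vehicle replicate 3 was its lowest library. Of 10 heat shock genes, 3 were past the same criteria and higher with insulin (*Hspa1a*, *Hspa1b* and *Hspb1*), beside 2.86% of all genes. The other 7 did not pass, 4 with higher and 3 with lower values, such as −0.74 for *Hsp90aa1*, −0.53 for *Hspa8* and −0.48 for *Hsph1*. *Hspb1* measured 29.98, 25.7 and 13.7 CPM in the vehicle mice and 90.2, 34.9 and 62.0 CPM in the insulin mice. *Nfil3*, a clock-linked basic leucine zipper repressor, fell by the same criteria, from 15.8, 16.9 and 16.8 CPM to 9.59, 9.83 and 13.3 CPM (−0.60 ± 0.23; adjusted p = 0.852), also without overlap. Without insulin replicate 1, 0 of the 47 relatives were past the criteria, where 0.727% of all genes were. The next smallest p values among the other immediate early genes were those of *Dusp1* (−1.45 ± 0.72) and *Btg1* (−0.55 ± 0.30), and neither passed the criteria. Among the AP-1 partners they were those of *Batf2* (1.07 ± 0.55), *Batf* (0.70 ± 0.48), *Batf3* and *Atf2* (−0.53 ± 0.37). Of the 11 AP-1 partners tested, 0 were past the criteria, beside 2.86% of all genes.

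Of the 21 upstream kinases and factors, 0 passed the criteria (2.86% of all genes), 8 had higher and 13 lower values, and 7 did not overlap between groups, 33.3% beside 12.3% of all genes. SRF, the factor that serves many immediate early promoters, is encoded by *Srf*, which measured 16.9, 4.24 and 13.5 CPM in the vehicle mice and 18.8, 23.0 and 24.5 CPM in the insulin mice (0.94 ± 0.45; adjusted p = 0.852). Its coactivator *Mkl1* was at 7.09, 2.64 and 4.34 CPM and 9.37, 7.27 and 8.21 CPM (0.82 ± 0.38; adjusted p = 0.852). Every insulin mouse was above every vehicle mouse for *Srf* and also for *Mkl1*, and vehicle replicate 2 was lowest for both. Both passed the criteria of the study with no filter (3.22% of genes), with the replicate block (2.4%) and without vehicle replicate 1 (9.81%). *Srf* also passed without vehicle replicate 2 (3.69%). Neither gene passed by DESeq2 (2.38% of genes) or voom with sample weights (1.59%). Nor did either pass with the GC offset (3.55%) or with the GC offset and replicate block together (2.51%). *Rps6ka1*, which encodes the ERK-activated kinase RSK1, was at 0.48 ± 0.24 and *Nab1*, an EGR1 corepressor, at −0.70 ± 0.41 on the log2 fold change scale.

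Of 25 MYC partners and targets, 24 were tested and 0 passed the criteria, beside 2.86% of all genes. Values were higher for 12 and lower for 12, with a median log2 fold change of −0.020. The smallest p values among partners were those of *Mxd4* (0.51 ± 0.31), *Max* (0.34 ± 0.24), *Mnt* (0.62 ± 0.52) and *Mlx* (−0.23 ± 0.20). Among targets they were those of the ribosome assembly genes *Nop56* (0.28 ± 0.20), *Npm1* (−0.30 ± 0.24) and *Nolc1* (0.27 ± 0.23) and of the cell cycle kinase gene *Cdk4* (0.27 ± 0.23). None of these values exceeded 2 SE.

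Among the 5 genes outside the list nearest to its mean profile, by root mean square difference of centred log2 levels over 6 libraries among 9173 genes, were *Lgals4* (0.159), the pseudogene *Rpl19-ps11* (0.171), *Pcyt2* (0.192) and the pseudogene *Gm9843* (0.193). The mean profile was −0.10, −1.49 and 1.08 in vehicle replicates 1, 2 and 3, and 0.34, −0.29 and 0.47 in insulin replicates 1, 2 and 3. *Pcyt2*, an enzyme of phosphatidylethanolamine synthesis, measured 153.6, 53.6 and 290.7 CPM in the vehicle mice and 190.5, 166.2 and 189.3 CPM in the insulin mice. The median difference over all candidates was 0.857. With 6 libraries, of which 2 set most of the profile, such likeness describes these libraries only.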

How the data were processed

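The deposited table held raw read counts per gene, with no normalization or pooling by the authors, for 6 liver libraries. Per the labels and the study's methods, reads were aligned to mm10, and the submitters' processing notes name Bowtie2 2.2.3. The counting program, its annotation and its strand setting are not given in the sources used here. The groups, IR insulin and IR vehicle, were compared by the edgeR 4.0.16 quasi-likelihood F test (two-sided; R 4.3.3) with TMM factors and filterByExpr (minimum count 10, minimum total 15). P values were adjusted by Benjamini-Hochberg over 13377 genes, and SE came from the F statistic. With 3 mice against 3, an exact permutation test has a smallest p of 0.1 and was not used. CPM values are TMM-scaled, and the biological coefficient of variation was 0.357. Library differences use log2 CPM with a prior count of 2. On simulated data with these library sizes, the test was applied at an adjusted p under 0.05. It recovered 85% of 200 genes changed 4-fold and 3% of 200 changed 2-fold. The coefficient of variation estimated for each tested gene of the list was above 0.357, from 0.42 for *Myc* to 0.83 for *Fos*. The recovered shares therefore do not give the power for these genes, which was not tested.

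Gene models were those of GENCODE M21 (GRCm38), where 99.9% of identifiers were found, and promoters those of RefSeq. Protein sequences were not analysed here. The 10 genes, the related lists and the alternatives (other size factors, no filter, DESeq2 1.42.0, voom with sample weights in limma 3.58.1, a replicate block, a GC offset and leaving out each library) were chosen with earlier results of these data known. Named were all 10 genes, the 4 related genes of each list with the smallest p, every related gene past the study's criteria, and the 5 nearest profiles among genes of at least 5 CPM, of which 1 is not reported here. Replicate numbers and groups came from the sample labels, which give no batch.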

Additional observations from a re-analysis of the deposited data

How the results depend on the processing

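Of 144 values (9 genes under 16 alternatives), 115 kept both their sign and their side of the study's criteria, 6 kept their sign and passed the criteria, and 23 changed sign. RLE and upper-quartile size factors changed no sign and no call. The number of the 9 genes past the criteria was 0 in the main edgeR fit. It was 1 with no filter, with DESeq2, with the GC offset, with the GC offset and replicate block, and with the GC offset without vehicle replicate 3. Among the relatives the number in the main fit was 2 of 47 tested (2.86% of all genes). It became 4 of 52 tested by DESeq2, which included *Nr4a3*, outside the 47 (2.38%). It was 1 of 47 with the replicate block (2.4%) and 5 of 47 with the GC offset without vehicle replicate 3 (5.23%). Among upstream kinases and factors it was 0, and became 2 with no filter and with the replicate block (*Mkl1* and *Srf*, higher) and 2 with the GC offset without vehicle replicate 3 (*Map2k2* and *Nab1*, lower).

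Voom with sample weights, which gave vehicle replicates 2 and 3 weights of 0.122 and 0.429, turned *Fos* to 0.071, *Junb* to 0.38 and *Myc* to −0.21. The GC offset without vehicle replicate 3 turned *Fos* to 1.24, *Junb* to 0.56, *Egr1* to 0.47 and *Btg2* to 0.17. With vehicle replicates 2 and 3 left out, *Fos* was at 1.55, *Jun* at −0.13, *Junb* at 0.68, *Egr1* at 1.11, *Myc* at −0.27 and *Btg2* at 0.070. The cause of these changes was not tested.

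Leaving out each library in turn gave 0 to 1 of the 9 genes, 0 to 6 relatives and 0 to 2 upstream genes past the criteria, and a median log2 fold change of −0.56 to 0.96. The log2 fold changes ran from −1.19 to 1.48 for *Fos*, −0.0066 to 0.78 for *Jun*, −0.56 to 1.34 for *Junb*, −0.024 to 1.15 for *Jund*, −1.80 to 1.18 for *Egr1*, −1.18 to 0.35 for *Ier2*, −0.15 to 0.52 for *Myc*, −0.89 to 0.24 for *Btg2* and 0.78 to 1.79 for *Ier3*. The number of relatives was 6 without vehicle replicate 1, 2 or 3 (9.81%, 3.69% and 6.51% of all genes), 0 without insulin replicate 1 (0.727%) and 1 without insulin replicate 2 (1.05%).

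The sample labels do not say whether replicate numbers pair mice. Over the tested genes, deviations from the group means correlated at −0.039, 0.069 and 0.017 for numbers 1, 2 and 3. With 3 mice a group, such values cannot decide whether mice were paired. With the replicate block *Junb* was at 0.69, and no other gene of the 9 changed sign or call. At 9 to 61 counts a library for *Ier3* and 0 to 6 for *Fosb*, depth limits what can be said of these genes, and intervals for the others are set by the spread between mice.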
